A study of Mus musculus with 9 samples.

Results

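The 3 cultures of experiment 1 are described here against the 6 cultures of experiments 2 and 3, in mouse natural killer (NK) cells expanded with interleukin-2. NK cells were enriched from spleens of female C57BL/6N mice with DX5 (CD49b) magnetic beads, with 3 to 4 mice pooled for each culture, and kept for 7 days in 5000 U/ml recombinant human IL-2, with splits on days 4 and 6. Each experiment held 1 culture of wild-type (WT) cells, 1 of Tyk2K923E cells, whose Tyk2 kinase is inactive, and 1 of Tyk2-/- cells, which were made to lack Tyk2, a Janus kinase of cytokine receptors. All 9 cultures therefore share strain, sex, bead selection, IL-2 dose and time in culture, and the labels give no treatment that differs between experiments. The cells are bulk cultures, in which fewer cells of a type and less RNA per cell cannot be told apart. The labels do not say whether mice, IL-2 lots, cell density or RNA work differed between the experiments, so anything that did cannot be told apart from the state of the cultures.

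Experiment 1 was chosen by the measured values themselves, because its arrays stood apart from the other 6, so its differences are given as a description with no test. Of the 9 arrays, 3 belong to it. The values are log2 signals in which a difference of 1 is 2-fold. Of 41345 probe sets, 23521 carried a single gene symbol and 13245 of these lay at or above the array median on at least 3 of 9 arrays, which left 12579 genes with the brightest probe set taken for each. A gene could pass that filter through the 3 arrays of experiment 1 alone. For each gene the array of experiment 1 was set against the mean of the other 2 arrays of its genotype, and the 3 differences are given as mean ± SD (n = 3 genotypes). Gene lists for pathways and cell types (41 lists, 1230 genes, 1064 with their own probe set and 927 tested) were read in the same way. A gene is called separated when all 3 arrays of experiment 1 lay above, or all 3 below, all 6 others. This comparison ignores genotype. A gene that differs between genotypes can therefore overlap although experiment 1 differs within each of them.

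When IL-2 drives NK cells to divide, E2F factors turn on the genes of DNA replication, and later factors of the MuvB complex, which include B-MYB, turn on those of mitosis. MYC raises the output of the nucleolus, where ribosomes are assembled, and of nucleotide and lipid synthesis. Lymphocytes that slow down or run short of growth signals regain FOXO-driven brakes such as p27, and low oxygen or low nutrients turn on HIF and ATF4 targets.

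Component 1 of a principal component analysis, with 61.0% of the variance, set experiment 1 apart. Its scores were 24.1, 29.1 and 12.9 for the WT, Tyk2K923E and Tyk2-/- arrays of experiment 1 and lay between -15.7 and -8.4 for the 6 others. Correlations over all genes were 0.993 to 0.997 among the 15 pairs within experiments 2 and 3 and 0.989 to 0.991 among the 3 pairs within experiment 1. Between experiment 1 and the rest they were 0.966 to 0.98 for its WT and Tyk2K923E arrays and 0.984 to 0.988 for its Tyk2-/- array, which lay nearest to the others. The probe set of Tyk2 (on chromosome 9) read 9.55, 8.63 and 8.85 on the arrays labelled Tyk2-/- in experiments 1 to 3 and 8.68, 8.56 and 8.63 on those labelled WT. It was not lower in the knockout and does not check the labels, and the sources used here do not say whether its probes lie in the deleted part.

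**Figure D1:**
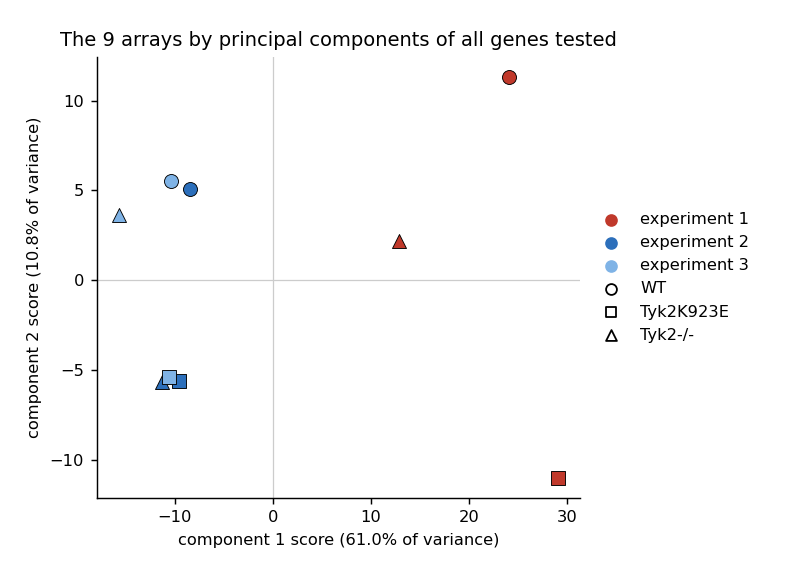
Scores of the 9 arrays on the first and the second principal component of all genes tested, coloured by experiment, with the genotype as the marker. The 3 arrays of experiment 1 lie at positive scores of component 1 (12.9 to 29.1), and the 6 arrays of experiments 2 and 3 lie close together at negative ones.

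The median size of the difference between experiment 1 and the rest was 0.14 (log2). Between experiments 2 and 3, it was 0.058. A difference of at least 1 was seen in 107 genes for experiment 1 and in 1 gene between experiments 3 and 2, and a difference of at least 0.5 in 1190 and 25 genes. All 3 arrays of experiment 1 lay above the others in 1821 of 12579 genes (14.5%) and below them in 2356 (18.7%). These shares are the background for each count of separated genes below. With a size of at least 2-fold added, 43 genes (0.342%) were higher and 62 (0.493%) lower, and these 105 genes are called higher or lower below. Just inside that limit lay N4bp2l1 (1.006) and Dkc1 (-1.002), and just outside it Dnajb9 (0.995) and Nop58 (-0.998). The split between directions moved with the scaling: 41.0% of the calls were higher in the deposited values and 51.9% (56 higher, 52 lower) after a further quantile normalisation, which also gave 2428 genes separated above and 2017 below. Without the Tyk2-/- array of experiment 1, the rule called 66 genes higher and 108 lower.

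**Figure D2:**
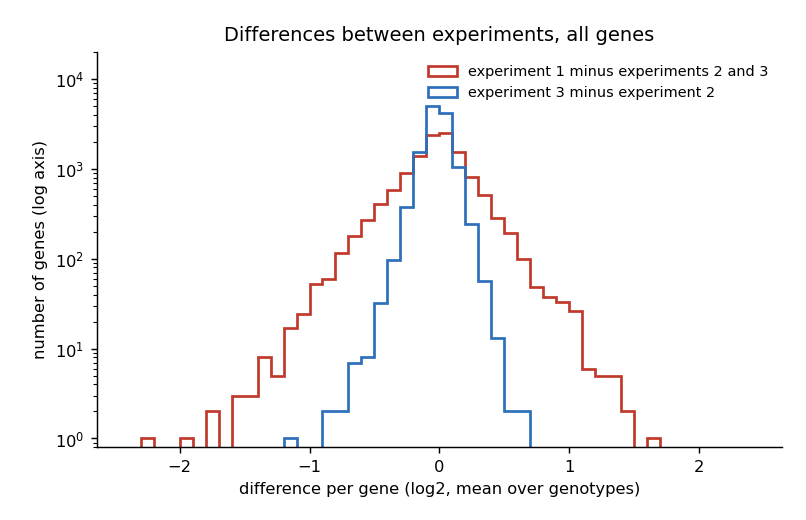
Number of genes (log axis) by difference in log2 signal, for experiment 1 minus experiments 2 and 3 (red) and experiment 3 minus experiment 2 (blue). The red outline reaches from -2.25 to 1.66, and the blue one passes 1 in size for 1 gene.

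Among the genes of the cell cycle, the promoters carry short motifs that mark when a gene is switched on, and the promoters below show them for members with a large difference. Each stretch runs from 90 bases before to 30 bases after the gene start (RefSeq, GRCm38.p6), 5′ to 3′ on the strand of the gene, with the motif in capitals. Cenpf (chr1:189688057-189688176, minus strand) and Kif20b (chr19:34922268-34922387, plus strand) encode proteins of the mitotic chromosome and spindle, and their capitals mark TTTGAA, the core of the cell cycle homology region bound by the MuvB complex. Hells (chr19:38930900-38931019, plus strand), a chromatin remodeller, and Mcm3 (chr1:20820283-20820402, minus strand), a subunit of the replicative helicase, carry TTTCCCGC, a form of the E2F site. In Hells it lies on the strand shown, and in Mcm3 on the opposite strand, so that the capitals of Mcm3 are its reverse complement. Cenpe differed by more than Cenpf, and Exo1 by more than Hells. Both had no such motif in that stretch or no usable promoter.
Cenpf: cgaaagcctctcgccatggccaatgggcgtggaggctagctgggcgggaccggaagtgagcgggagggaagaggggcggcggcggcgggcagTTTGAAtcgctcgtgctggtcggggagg
Kif20b: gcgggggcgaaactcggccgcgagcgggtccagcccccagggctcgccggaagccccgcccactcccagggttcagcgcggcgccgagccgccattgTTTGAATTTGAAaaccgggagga
Hells: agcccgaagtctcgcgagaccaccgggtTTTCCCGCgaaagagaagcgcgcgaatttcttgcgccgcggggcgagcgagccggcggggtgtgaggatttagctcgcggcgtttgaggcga
Mcm3: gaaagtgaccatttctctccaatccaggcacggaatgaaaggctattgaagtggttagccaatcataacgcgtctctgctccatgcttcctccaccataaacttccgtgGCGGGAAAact

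In a window from 250 bases before to 50 after the start, and on either strand, TTTGAA was present in 38 of the 53 mitotic genes with a promoter in the table (71.7%), against 14% of the 9880 tested genes that had one. In the replication list it was present in 6 of 38 (15.8%). TTTCCCGC was found in 7 (18.4%) and TTTGGCGC, another form of the E2F site, in 8 (21.1%) of those 38, against 2.36% and 1.13% of all. In the mitotic list the same motifs were found in 0 and 2 (3.77%) of 53 promoters. A match is a description of the sequence and not evidence that the site is bound. The motif shares, here and below, are not computed from the differences of experiment 1. They are not independent of its values, because only genes that passed the filter were counted, and that filter read its arrays too. The lists were also chosen with earlier results of these data known. Lists of known targets or functions are likely to hold such motifs in any data set. The part of these factors in the differences was not tested.

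Genes of DNA replication were lower in experiment 1. All 44 tested of the 48 genes on the list had a negative mean difference, 38 were separated below the other arrays and none above, and the median difference was -0.78, against 0.0 for all genes tested. Mcm3 read 9.41, 9.0 and 9.85 in the WT, Tyk2K923E and Tyk2-/- cultures of experiment 1 and 10.35 to 10.55 (median 10.43) in the 6 others. The ranges did not overlap, and the difference was -1.02 ± 0.40. Rrm2, the subunit of ribonucleotide reductase that limits the supply of deoxynucleotides, read 9.36, 8.94 and 9.86 against 10.26 to 10.53, a difference of -1.02 ± 0.49. The exonuclease Exo1 (-1.14 ± 0.38), Hells (-1.07 ± 0.42), the DNA polymerase subunits Pola1 (-1.06 ± 0.24) and Pole (-1.04 ± 0.44) were also at least 2-fold lower, so that 6 genes of the list were called. In each of these 6 genes the lowest array was the Tyk2K923E culture of experiment 1.

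Genes of G2 and mitosis showed the same direction. Of 65 tested genes on a list of 67, 58 were separated below the others and none above, 6 were called lower, and the median was -0.56. Mki67, which encodes the proliferation marker Ki-67, read 10.35, 9.74 and 11.02 in experiment 1 and 11.43 to 11.92 (median 11.66) elsewhere, a 2.46-fold lower signal (-1.30 ± 0.50). Cenpe, a kinesin of the kinetochore, read 7.82, 7.27 and 8.30 against 9.19 to 9.73 (median 9.64) and was 3.44-fold lower (-1.78 ± 0.38). The motif-bearing Cenpf (-1.58 ± 0.28) and Kif20b (-1.58 ± 0.16) were followed by Smc2, a subunit of condensin (-1.33 ± 0.43). Top2a, the topoisomerase of mitotic chromosomes, read 10.29, 9.81 and 10.44 against 10.90 to 11.05, a smaller difference of -0.80 ± 0.33. The remaining called gene, named after its values were seen, was Mybl2, which encodes B-MYB itself, at 7.96, 7.75 and 8.28 against 8.93 to 9.29 (-1.14 ± 0.24). In Mki67, Cenpe, Cenpf, Kif20b, Smc2 and Top2a alike, the Tyk2K923E culture was the lowest of the 9.

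Replication-dependent histones, made in S phase, were among the largest differences. Of 62 listed histone genes, 25 had their own probe set, 21 passed the filter, and near-identical copies may share signal. All 21 had a negative difference, 14 were separated below, and the median was -0.50. H2bc14 read 7.17, 7.11 and 7.53 in experiment 1 and 9.07 to 9.35 (median 9.17) in the others, a 3.84-fold lower signal. H4c1 (-1.73 ± 0.17) and H4c14 (-1.40 ± 0.22) were lower in all 3 genotypes by similar amounts. H4c17 read 6.25, 5.71 and 7.30 against 7.68 to 8.28, so that its Tyk2-/- array lay much nearer to the rest (-1.52 ± 0.81). H4c8 (-1.20 ± 0.42) was uneven in the same direction, with differences of -1.55, -1.31 and -0.73 in the WT, Tyk2K923E and Tyk2-/- cultures.

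The genome-repair genes Rif1 (-1.48 ± 0.25), Brca2 (-1.42 ± 0.33) and Polq (-1.37 ± 0.21) belonged to the 15 largest negative differences. Brca2 read 6.51, 6.4 and 7.06 in experiment 1 and 7.93 to 8.20 elsewhere. The largest negative difference of all genes was in A630089N07Rik, a transcript with no assigned role here, at 5.33, 5.06 and 5.67 against 7.38 to 7.72 (-2.25 ± 0.22). Shmt1, which feeds one-carbon units into nucleotide synthesis, read 6.99, 6.89 and 7.6 against 8.34 to 8.64 (-1.31 ± 0.32). Gm4759 (-1.36 ± 0.17) and Mdn1 (-1.37 ± 0.34), an ATPase that matures the large ribosomal subunit, completed the 15.

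**Figure D3:**
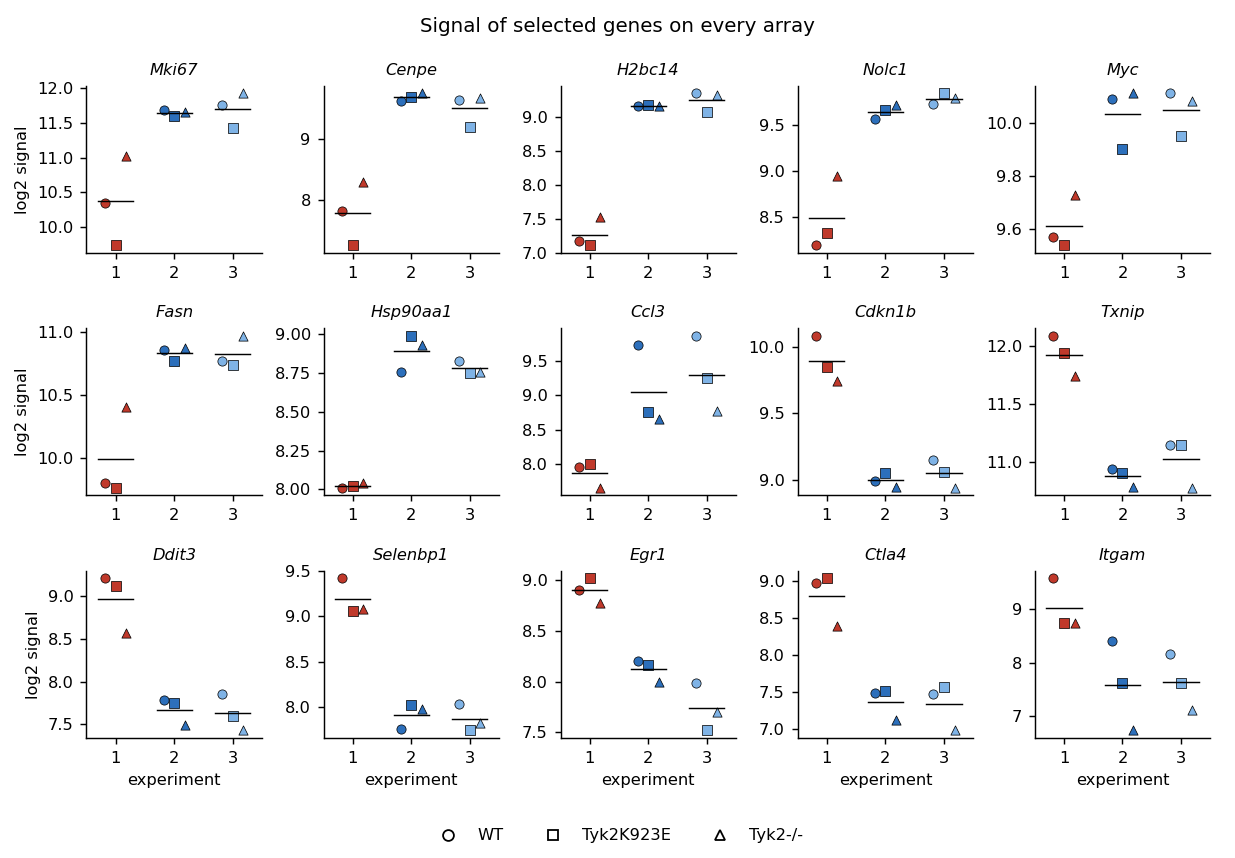
Log2 signal of 15 genes on each of the 9 arrays, by experiment and genotype (marker), with the mean of each experiment as a line and an axis of its own range for each gene. All 15 were taken from the separated genes (4177 of the 12579 tested), so in every panel the 3 arrays of experiment 1 lie on one side of the 6 others.

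The nucleolar genes that MYC is known to drive were lower as a group. Of 47 tested genes on a list of 50, 44 were separated below and 2 above, 9 were called lower, and the median was -0.63. Myc itself read 9.57, 9.54 and 9.73 in experiment 1 and 9.90 to 10.11 (median 10.09) in the others, a difference of -0.43 ± 0.09. Utp20, a scaffold of the small-subunit processome, read 7.20, 7.32 and 7.79 against 8.63 to 8.85 (-1.29 ± 0.24). Nolc1, a chaperone of nucleolar guide RNPs, read 8.19, 8.33 and 8.94 against 9.56 to 9.84 (-1.23 ± 0.36). Heatr1 (-1.18 ± 0.19), which supports transcription of ribosomal RNA, Cad (-1.11 ± 0.33), the enzyme that starts pyrimidine synthesis, and the nucleolar GTPase Gnl3 (-1.04 ± 0.13) were also at least 2-fold lower. Utp20, Nolc1, Heatr1 and Gnl3 were lowest in the WT culture of experiment 1 and Cad in its Tyk2K923E culture.

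The E-box CACGTG, to which MYC binds, was present in 13 of the 40 promoters of this list in the table (32.5%), against 11.3% of all tested genes. It is shown in capitals for Nop2, a methyltransferase of ribosomal RNA (chr6:125131793-125131912, plus strand), at -0.91 ± 0.11, and for Utp4, a processome subunit (chr8:106893550-106893669, plus strand), at -0.74 ± 0.05. Members with larger differences, such as Utp20 and Nolc1, had no such motif in the stretch printed or no usable promoter.
Nop2: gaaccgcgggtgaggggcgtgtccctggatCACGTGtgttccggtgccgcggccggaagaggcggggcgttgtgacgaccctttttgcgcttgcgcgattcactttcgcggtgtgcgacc
Utp4: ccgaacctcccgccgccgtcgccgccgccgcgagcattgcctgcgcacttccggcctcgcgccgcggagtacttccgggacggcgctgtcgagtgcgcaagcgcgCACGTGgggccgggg

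Brakes on the cell cycle and genes linked to quiescence ran the other way. Of 27 tested genes of 31, 15 were separated above and 1 below, none reached 2-fold, and the median was 0.24. Cdkn1b, which encodes the CDK inhibitor p27, read 10.08, 9.85 and 9.74 in experiment 1 and 8.94 to 9.15 (median 9.02) elsewhere, 1.82-fold higher (0.87 ± 0.13). Txnip, a brake on glucose uptake, read 12.09, 11.94 and 11.74 against 10.78 to 11.15 and was 1.96-fold higher (0.97 ± 0.07). Btg2, an antiproliferative co-factor of mRNA decay, differed by 0.97 ± 0.07, Ccng2, a cyclin of arrested cells, by 0.82 ± 0.12, and Tsc22d3, a FOXO and glucocorticoid target, by 0.63 ± 0.17. Btg1 (0.35 ± 0.04), Cdkn1a (0.29 ± 0.12) and Klf2 (0.19 ± 0.16) were also separated above, by less. The G1 cyclins Ccnd2 (-0.12 ± 0.06) and Ccnd3 (0.09 ± 0.08) overlapped between experiments.

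Glycolytic and oxygen-sensitive genes were mostly higher, with 29 of 44 tested genes separated above, 2 below and a median of 0.29 (49 genes on the list). Selenbp1, which oxidises methanethiol, read 9.42, 9.06 and 9.08 in experiment 1 and 7.74 to 8.03 (median 7.89) in the others (1.30 ± 0.20). Ndrg1, a stress-responsive gene often used as a hypoxia marker, read 11.37, 11.43 and 10.98 against 9.97 to 10.17 (1.19 ± 0.17). These were the 2 members called higher. Mxi1, a MYC antagonist, differed by 0.93 ± 0.09, P4ha2, a collagen prolyl hydroxylase, by 0.92 ± 0.14, the oxygen sensor Egln3 by 0.82 ± 0.23 and the mitophagy receptor Bnip3 by 0.67 ± 0.22. The glucose transporter Slc2a1 differed by only 0.28 ± 0.07, and lactate dehydrogenase Ldha was lower, at 8.36, 8.29 and 8.31 against 8.43 to 8.54 (-0.16 ± 0.05). The largest positive difference of all genes was in Pygl, the glycogen phosphorylase of liver and leukocytes, at 8.84, 8.60 and 8.28 against 6.61 to 7.10 (1.66 ± 0.10).

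The HIF core motifs GACGTG and TACGTG, which share their last 5 letters with the E-box, were present in 14 (33.3%) and 10 (23.8%) of 42 promoters of the list, against 11% and 4.21% of all. They are in capitals for Mxi1 (chr19:53329323-53329442, plus strand) and P4ha2 (chr11:54100834-54100953, plus strand), where the latter holds 1 of each. Selenbp1 and Ndrg1, with larger differences, had no such motif in the stretch printed or no usable promoter.
Mxi1: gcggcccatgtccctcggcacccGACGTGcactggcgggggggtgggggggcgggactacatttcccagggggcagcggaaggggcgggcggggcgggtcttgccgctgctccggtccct
P4ha2: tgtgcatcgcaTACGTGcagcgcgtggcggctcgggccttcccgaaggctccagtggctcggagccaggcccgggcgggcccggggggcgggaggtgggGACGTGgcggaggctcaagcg

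In the integrated stress response, in which ATF4 and CHOP answer amino acid shortage or blocked translation, 15 of 47 tested genes of 53 were separated above (14.5% of all genes were) and 4 below (18.7% of all), with a median of 0.04. Ddit3, which encodes CHOP, read 9.21, 9.12 and 8.57 in experiment 1 and 7.43 to 7.86 (median 7.67) elsewhere, 2.49-fold higher (1.32 ± 0.18). Nupr1, a small chromatin protein induced by stress, read 9.03, 9.55 and 8.74 against 7.61 to 8.02 (1.22 ± 0.35). Atf5 (0.80 ± 0.31), Ppp1r15a (0.78 ± 0.25), which dephosphorylates eIF2α, and Trib3 (0.71 ± 0.14) were separated above as well. Other targets of the pathway were not: Asns (0.05 ± 0.07), Chac1 (0.04 ± 0.08) and Atf3 (-0.03 ± 0.28) overlapped between experiments. The composite C/EBP-ATF motif TGATGCAA was present in 11 of 38 promoters of the list (28.9%), against 0.8% of all. No promoter is printed for this list, where no separated member with a usable promoter held the motif in the shorter stretch.

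In the unfolded protein response, 8 of 34 genes were separated above and 5 below, the latter under the 18.7% of all genes, with a median of 0.05. The co-chaperone Dnajb9 read 9.05, 9.13 and 8.52 against 7.58 to 8.10, whereas the chaperone Hspa5 read 9.74, 9.87 and 9.70 against 9.73 to 9.90 and overlapped. Sel1l (0.45 ± 0.11) and P4hb (0.40 ± 0.05) were higher and Sdf2l1 (-0.46 ± 0.10) was lower.

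Heat shock genes leaned down, with 9 of 20 separated below (18.7% of all genes were) and 3 above, near the 14.5% of all. Their median was -0.18, which became -0.27 without the Tyk2-/- array of experiment 1. Hsp90aa1, the inducible HSP90 chaperone, read 8.01, 8.02 and 8.04 in experiment 1 and 8.75 to 8.99 (median 8.79) in the others (-0.82 ± 0.03). Hsph1 (-0.74 ± 0.27), Cacybp (-0.54 ± 0.11), the mitochondrial chaperonin Hspd1 (-0.51 ± 0.13) and the HSP90 co-chaperone Ahsa1 (-0.50 ± 0.14) were lower too. Of 26 NRF2 targets 5 were separated above and 5 below, near the shares of all genes (14.5% and 18.7%), among them Txnrd1 (-0.59 ± 0.21), Gclc (-0.48 ± 0.08) and metallothionein Mt2 (0.45 ± 0.20). Of 25 p53-responsive genes, 7 were separated above (14.5% of all genes were) and 3 below (18.7% of all). Btg2, Bbc3 (0.65 ± 0.22) and Trp53inp1 (0.53 ± 0.22) lay on the upper side. Gtse1, which is also a mitotic gene (-0.65 ± 0.17), lay on the lower.

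Lipid synthesis was lower in part. Of 16 tested fatty acid synthesis genes, 9 were separated below and none above, with a median of -0.24. Fasn, the fatty acid synthase, read 9.80, 9.76 and 10.40 against 10.74 to 10.97 (median 10.82), a 1.79-fold lower signal (-0.84 ± 0.28). Acaca, which makes its malonyl-CoA substrate, differed by -0.75 ± 0.23, Elovl6 by -0.56 ± 0.18 and Fads2 by -0.48 ± 0.22. In cholesterol synthesis 5 of 22 genes were separated below, little over the 18.7% of all genes, and 2 above (median -0.14), with Hsd17b7 at -0.72 ± 0.15, the feedback protein Insig1 at -0.34 ± 0.11 and the cholesterol exporter Abcg1 at 0.55 ± 0.18. The sterol response element TCACNCCAC was found in 1 of 17 promoters of that list (5.88%), against 1.36% of all.

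Nuclear-encoded respiratory chain genes did not stand out from all genes, with 9 of 66 separated above and 11 below, near the 14.5% and 18.7% of all genes, and a median of 0.02. Cytochrome c, Cycs, read 10.65, 10.85 and 10.87 against 11.18 to 11.33 (-0.45 ± 0.08), whereas the complex I subunit Ndufa6 read 10.58, 10.63 and 10.30 against 9.66 to 9.86 (0.73 ± 0.17). Lysosome and autophagy genes were higher in 13 of 35 and lower in 3 (median 0.19), led by Atg12 (0.79 ± 0.15) and the cholesterol carrier Npc2 (0.52 ± 0.06), with β-glucuronidase Gusb at -0.89 ± 0.29. Among the other genes of the 15 largest positive differences, Sat1, which acetylates polyamines for export, read 12.25, 12.35 and 12.04 against 10.48 to 11.27 (1.23 ± 0.09). Tcp11l2 (1.49 ± 0.10), Klhl24 (1.37 ± 0.35) and the heparan sulfate proteoglycan Sdc4 (1.17 ± 0.11) were separated in the same way. The secreted trefoil peptide Tff1, at 7.83, 9.09 and 7.66 against 6.51 to 7.16, and placental growth factor, Pgf, at 6.17, 7.49 and 5.61 against 4.88 to 5.41, were highest in the Tyk2K923E culture. Without that array the difference of Pgf was 0.74 in place of 1.22.

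**Figure D4:**
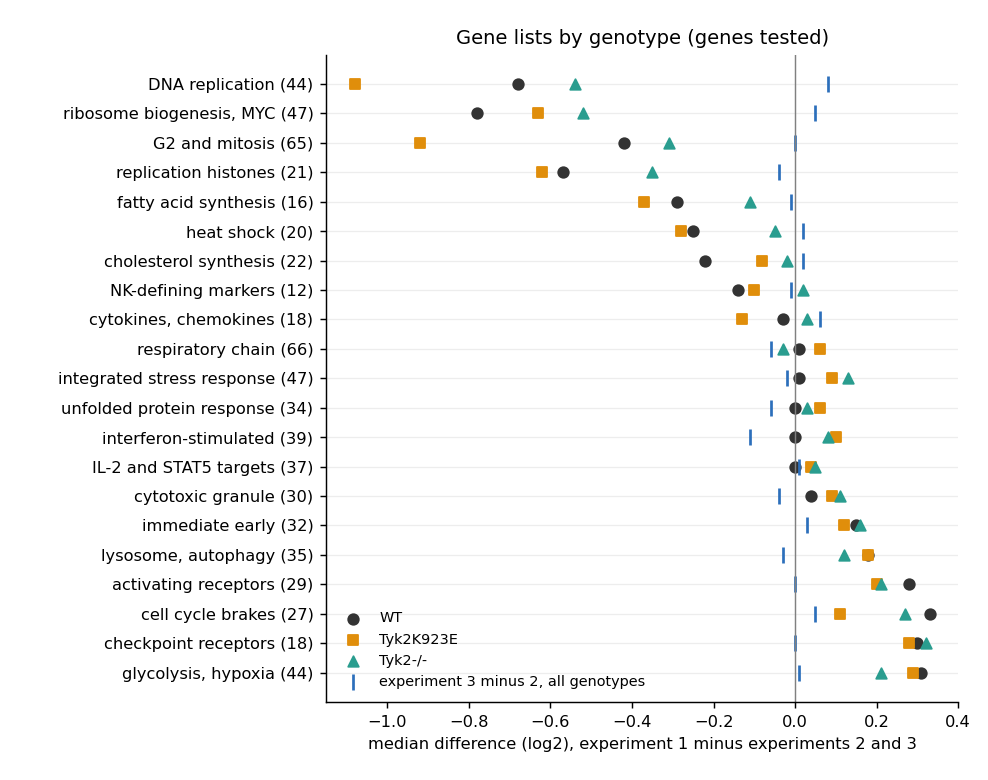
Median difference (log2) over the tested genes of 21 lists, for the WT, Tyk2K923E and Tyk2-/- cultures of experiment 1 against the cultures of the same genotype in experiments 2 and 3, with the median of experiment 3 minus experiment 2 as a bar. The proliferation lists at the top lie between -1.08 and -0.31 in each genotype, and the bars lie between -0.11 and 0.08.

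Signs of activation were mixed. Immediate early genes, which respond within minutes to receptor signals, were separated above in 14 of 32 and below in 2 (median 0.13). Egr1 read 8.90, 9.02 and 8.78 in experiment 1 and 7.52 to 8.20 (median 7.99) elsewhere (0.98 ± 0.19). Rgs1 (0.91 ± 0.41), which dampens chemokine receptors, Junb (0.66 ± 0.24) and Ier2 (0.57 ± 0.19) were also higher. Among cytokines and chemokines, 18 of 37 listed genes were tested, with 1 separated above and 4 below, the latter near the 18.7% of all genes. Ccl3, a chemokine that activated NK cells release, read 7.96, 8.0 and 7.65 against 8.65 to 9.87 (median 9.01) and was 2.46-fold lower (-1.30 ± 0.47). Its difference was the largest in the WT cultures, where experiments 2 and 3 read 9.73 and 9.87. Its neighbour Ccl4 (-0.48 ± 0.44) and Xcl1 (-0.49 ± 0.24), which attracts dendritic cells, were lower. Ccl4 only just met the rule, with at most 6.27 in experiment 1 and at least 6.28 elsewhere. The gene separated above was Osm (0.23 ± 0.23). Ifng (-0.09 ± 0.12), Tnf (-0.20 ± 0.10), Csf2 (0.28 ± 0.05) and the chemokine Ccl5 (0.40 ± 0.18) overlapped across genotypes. Within each genotype, however, Csf2 and Ccl5 of experiment 1 lay above both other arrays, which Ifng and Tnf did not.

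As a list, genes of the IL-2 pathway differed little, with members on both sides. Of 37 IL-2 and STAT5 targets, 8 were separated above (14.5% of all genes were) and 4 below (18.7% of all), with a median of 0.09. Il2rb, the signalling chain of the receptor, read 12.50, 12.53 and 12.61 against 12.61 to 12.66 (-0.09 ± 0.07). The high-affinity chain Il2ra (-0.29 ± 0.09) and the feedback inhibitor Cish (-0.44 ± 0.05) overlapped across genotypes. Within each genotype, however, Il2ra and Cish were lower in experiment 1 than on both other arrays. Tfrc, the transferrin receptor of dividing cells, read 9.67, 9.37 and 9.40 against 9.91 to 10.41 (-0.59 ± 0.02). Tnfrsf18, which encodes GITR (0.58 ± 0.15), and Pim2 (0.45 ± 0.21), a survival kinase, were higher. NF-κB targets were separated above in 6 of 32, little over the 14.5% of all genes, and below in 2, both of them the chemokines Ccl3 and Ccl4.

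The abundant members of the cytotoxic machinery differed little. Perforin, Prf1 (-0.04 ± 0.05), Gzmb (-0.07 ± 0.10), Gzma (0.10 ± 0.14) and Gzmd (0.03 ± 0.04) had overlapping ranges, and their signals lay near the upper end of the arrays' range (14.1). Gzmc (0.21 ± 0.16) also overlapped, whereas Gzmg, just as abundant, read 13.39, 13.65 and 13.52 against 13.01 to 13.38 and was separated above (0.28 ± 0.07). Of 30 tested granule genes, 9 were separated above (14.5% of all genes were) and 2 below (18.7% of all). Gzmn read 7.85, 8.67 and 7.73 in experiment 1 and 6.87 to 7.53 in the others (0.90 ± 0.39). Gzmk read 8.51, 8.42 and 8.24 against 7.07 to 8.06 (0.86 ± 0.03), but here experiments 2 and 3 themselves stood apart, and against experiment 2 alone the difference was 0.50.

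Surface receptors included some of the largest positive differences. Ctla4, an inhibitory receptor better known from T cells, read 8.97, 9.04 and 8.40 in experiment 1 and 6.98 to 7.57 (median 7.47) elsewhere, 2.73-fold higher (1.45 ± 0.09). Itgam, the CD11b integrin chain of mature NK cells, read 9.57, 8.73 and 8.74 against 6.74 to 8.41 (median 7.62), with the WT culture above the mutants in each experiment (1.40 ± 0.37). Klrb1b, an inhibitory NKR-P1 receptor, read 10.96, 10.95 and 10.65 against 9.24 to 10.04 (1.09 ± 0.11). The integrin chain Itgb3 (1.04 ± 0.08), Klra2 of the Ly49 family (1.03 ± 0.19), the homing receptor Cxcr4 (1.01 ± 0.40), the adhesion receptor Adgrg1 (1.31 ± 0.32) and E-cadherin, Cdh1 (1.28 ± 0.31), a ligand of Klrg1, were called higher as well. Of 30 tested adhesion and trafficking genes 4 were separated above, near the 14.5% of all genes, and 2 below, and of 22 Ly49 genes 5 were tested and Klra2 alone was separated. Cxcr3 ran the other way, at 8.41, 7.82 and 8.18 against 8.45 to 8.94 (-0.52 ± 0.15).

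As groups, the receptor lists had positive medians, smaller than the differences of these genes. The 5 tested Ly49 genes had a median of 0.38, with 0.35, 0.26 and 0.53 in the WT, Tyk2K923E and Tyk2-/- cultures. Klra9 (0.48 ± 0.05) and Klra14-ps (0.38 ± 0.15) overlapped across genotypes but lay above both other arrays within each. Klra5 (0.04 ± 0.25) and Klra6 (-0.04 ± 0.41) did not. The list of activating receptors and adaptors was separated above in 8 of 29 and below in 2 (median 0.21). Those 8 include the inhibitory Klrb1b, the only member of the list called higher. Fcgr3, the CD16 receptor for antibody, read 10.29, 10.03 and 9.87 against 8.86 to 9.57 (0.84 ± 0.05). The SLAM adaptors Sh2d1b2 (0.99 ± 0.35) and Sh2d1b1 (0.68 ± 0.29) were higher too. Inhibitory and checkpoint receptors were separated above in 5 of 18 and below in none (median 0.26), among them Vsir (0.70 ± 0.19), Cd274 (0.55 ± 0.22) and Ceacam1 (0.40 ± 0.15). Transcription factors of the NK lineage were separated above in 11 of 32 and below in 2, with Prdm1, which encodes BLIMP-1 and restrains division (0.48 ± 0.08), Runx3 (0.31 ± 0.03) and Nfil3 (0.26 ± 0.14). Eomes (-0.17 ± 0.14) and Tbx21 (-0.03 ± 0.08) overlapped between experiments.

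Interferon-stimulated genes were separated above in 6 of 39, near the 14.5% of all genes, and below in 2 (median 0.05). The members with large differences were Isg20 (0.78 ± 0.30), Isg15 (0.59 ± 0.08) and Samhd1 (0.58 ± 0.06) on the upper side and Eif2ak2 (-0.56 ± 0.08) on the lower. Ifi27 (0.20 ± 0.04), Irf7 (0.34 ± 0.02) and Mx1 (-0.18 ± 0.19) overlapped when arrays were compared across genotypes. Within each genotype, Irf7 of experiment 1 lay above both other arrays. It read 7.91 against 7.63 and 7.47 in WT and 7.48 against 7.12 and 7.18 in Tyk2K923E. In Tyk2-/- cultures it read 7.56 against 7.21 and 7.25. Of 29 genes of interferon-gamma and antigen presentation 3 were separated above and none below (median 0.01), with H2-T23 at 0.65 ± 0.19. Cytokine receptors and their kinases were separated above in 5 of 33, again near that share, and below in 1 (median 0.09), with Il10ra at 0.51 ± 0.12 and Ifngr1 at 0.34 ± 0.15. Of 28 apoptosis regulators 7 were separated above, among them Mcl1 (0.34 ± 0.04) and Casp6 (0.57 ± 0.34), and 5 below, near the 18.7% of all genes, among them Birc6 (-0.65 ± 0.21).

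All 12 defining NK markers lay at or above the array median on every array. Klrd1 (0.54 ± 0.13) and Klrb1c (0.37 ± 0.16) were separated above and Ncr1 (-0.46 ± 0.26), Nkg7 (-0.18 ± 0.06) and Il2rb below. Of 24 T cell markers, 14 were tested, none was separated above and Ubash3a was separated below (-0.47 ± 0.21). Their summed linear signal was 6622 to 9844 in experiment 1 and 7546 to 10693 in the others. Cd3e read 11.28, 10.49 and 11.17 against 11.02 to 11.80, present in all cultures and lowest in the Tyk2K923E culture of experiment 1. Markers of B cells (7 of 24 tested), monocytes (8 of 24), dendritic cells (10 of 17), neutrophils (5 of 18) and basophils and mast cells (5 of 20) each had at most 1 gene separated above: H2-Ab1 (0.94 ± 0.21), shared by the B cell and dendritic lists, Cd68 (0.50 ± 0.27) and Kit (0.42 ± 0.29). Their summed signals overlapped between experiment 1 and the rest, from 2636 to 3245 against 2145 to 2918 for B cells, 3639 to 4034 against 3200 to 3754 for monocytes, 4277 to 5385 against 3761 to 4558 for dendritic cells, 531 to 582 against 505 to 567 for neutrophils and 2449 to 3642 against 1917 to 3458 for basophils and mast cells. Erythroid and platelet genes (5 of 18 tested) had 1 gene on each side, stromal and endothelial genes (7 of 17) 1 above, and genes linked to other innate lymphoid cells (13 of 15) 2 above and 1 below. Below the array median on all 9 arrays lay 12 of the 19 B cell markers with their own probe set, among them Cd79a, Ms4a1 and Pax5, 12 of 23 monocyte and macrophage markers, among them Adgre1 and Fcgr1, 4 of 15 dendritic, 12 of 18 neutrophil, among them S100a8 and S100a9, and 15 of 20 basophil and mast cell markers. Other members were well above it. Ighm, the heavy chain of IgM, read 10.15 to 10.83 over the 9 arrays, the lectin Cd209a 10.14 to 10.87, the lectin Clec4e 8.43 to 9.57 and the basophil protease Mcpt8 9.87 to 11.06. Clec4e (0.53 ± 0.14), Cd14 (0.29 ± 0.08), Cd209a (0.36 ± 0.33) and the mast cell chymase Cma1 (0.74 ± 0.40) had positive mean differences with overlapping ranges. Within each genotype, Clec4e and Cd14 of experiment 1 lay above both other arrays, whereas Cd209a and Cma1 did not. The list medians were -0.07 for T cells, 0.0 for B cells, 0.16 for monocytes and 0.06 for dendritic cells. They were 0.13 for neutrophils and 0.29 for basophils and mast cells. The part of other cells in the differences was not tested.

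Among short non-coding RNAs the classes differed. Small nucleolar RNAs, which guide modification of ribosomal RNA, were separated above in 27 of 72 (37.5%) and below in 2 (2.78%), with a median of 0.43. In protein-coding genes these shares were 14.7% and 19.6%. MicroRNA genes, the larger class with 137 tested, were separated above in 8 (5.84%) and below in 14 (10.2%), and their median was 0.0. The Y RNAs Rny1 and Rny3, small RNAs bound by the Ro protein, were called higher: Rny1 read 10.12, 10.70 and 10.40 against 8.86 to 9.68, and Rny3 7.49, 8.09 and 7.71 against 6.21 to 6.96. Of 12 tested long non-coding and nuclear RNAs, the Y RNAs included, 3 were separated above and 4 below, with Kcnq1ot1 at 5.43, 5.43 and 5.68 against 6.34 to 6.67 (-1.03 ± 0.11), Malat1 at -0.51 ± 0.14 and Xist at -0.51 ± 0.19. Mitochondrially encoded transcripts had a median of 0.01, with 1 of 10 separated above.

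**Figure D5:**
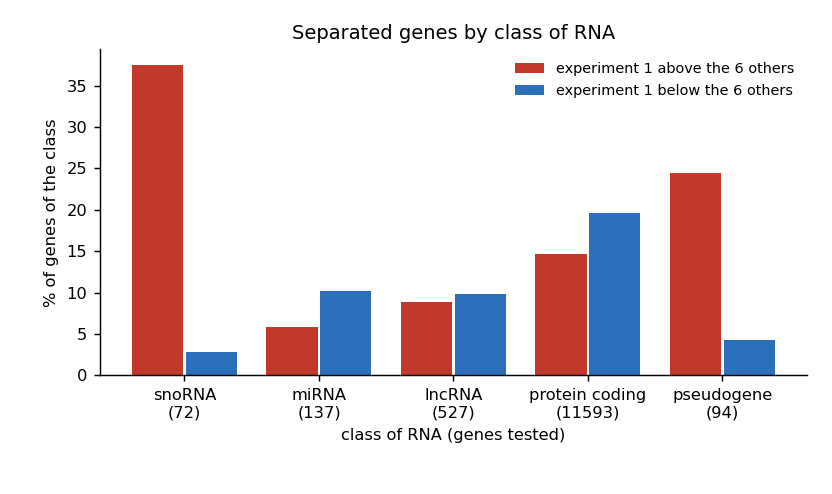
Share of the genes of each class of RNA that were separated above (red) or below (blue) the 6 other arrays in experiment 1, for classes with at least 20 genes tested. Small nucleolar RNAs stand at 37.5% above and 2.78% below, and protein-coding genes at 14.7% and 19.6%.

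The shares also varied with the genomic span of protein-coding genes. In 4 groups of nearly equal size, from the shortest span to the longest, 14.4%, 20.2%, 23.9% and 20% were separated below. Among genes of ribosome biogenesis the median was -0.49 for 31 genes with a span under the median of protein-coding genes and -0.92 for 16 longer ones. The same medians were -0.49 (30 genes) and -0.64 (35) for mitotic genes and -0.73 (25) and -0.78 (19) for replication genes, so these lists were lower in short and in long genes. The part of RNA class and span in the differences of experiment 1 was not tested.

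Experiments 2 and 3 were compared by limma over all 9 arrays with genotype as a factor. Experiment 1 was singled out against these 6 arrays together, so that their closeness is in part given by that choice and is no independent result. None of 12579 genes (0.0%) passed an adjusted p of 0.05, and 714 had an unadjusted p below 0.05, where 629 would be 0.05 of all tested. The smallest adjusted p was 0.0539, for Gzmk, which read 8.06, 7.83 and 7.77 in experiment 2 and 7.20, 7.23 and 7.07 in experiment 3, a difference of -0.72 (SE 0.07) with no overlap, in limma's moderated test. Iigp1, an interferon-inducible GTPase, read 6.32, 6.35 and 6.76 against 5.60, 4.96 and 5.41, a difference of -1.16 (SE 0.14, limma adjusted p = 0.166). For the replication, mitosis and ribosome biogenesis lists the median of experiment 3 minus experiment 2 was 0.08, 0.0 and 0.05. Some marker lists differed by more. The median was 0.22 for the 14 tested T cell markers, of which 7 had an unadjusted limma p below 0.05. It was -0.43 for the 5 tested basophil and mast cell markers and -0.17 for the 13 genes linked to other innate lymphoid cells. Among the 105 called genes, the size of this difference had a median of 0.07 and reached 0.48. Klra2 (-0.48) and Klrb1b (-0.38), and Egr1 (-0.38), which was not called, were nearer to experiment 1 in experiment 2 than in experiment 3. The comparison of experiment 1 with the rest and that of experiment 3 with experiment 2 share the arrays of experiments 2 and 3. The spread in the fit was shared by all 9 arrays, those of experiment 1 included. From the 6 arrays of experiments 2 and 3 alone, 974 genes had an unadjusted limma p below 0.05. Over the alternatives with 12579 genes that number ran from 455, without the Tyk2K923E array of experiment 3, to 1236 with array weights.

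The differences of experiment 1 had the same sign in all 3 genotypes in each of the 105 called genes, as the rule requires. Over all 12579 genes the differences correlated at 0.79 between WT and Tyk2K923E, 0.72 between WT and Tyk2-/- and 0.75 between Tyk2K923E and Tyk2-/- (Pearson, given as a description across genes, with the platform and the days of culture shared). Their size was not even. A difference of at least 1 was seen in 153 genes in WT, 305 in Tyk2K923E and 71 in Tyk2-/- cultures, and the median size among called genes was 1.18, 1.31 and 0.97. The Tyk2-/- difference was the smallest of the 3 in 68 of the 105 genes, and the Tyk2K923E one the largest in 57. The replication list had medians of -0.68, -1.08 and -0.54 in WT, Tyk2K923E and Tyk2-/- cultures, and the mitosis list -0.42, -0.92 and -0.31. Brakes on the cell cycle did not mirror this order, with 0.33, 0.11 and 0.27.

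Whether a gene's difference depended on genotype was put to limma as an interaction, with 1 array of experiment 1 per genotype. The 3 residual degrees of freedom come from experiment 2 against experiment 3 within each genotype, and the lone array is assumed to vary like those. The values of experiment 1 are also the ones that singled it out, so the p-values are given as a description and neither show nor refuse a dependence on genotype. No gene passed an adjusted p of 0.05 in any of the 3 pairs of genotypes (0.0% of 12579 in each). Unadjusted p-values below 0.05 numbered 1275 for Tyk2-/- against WT, 1187 for Tyk2K923E against WT and 1508 for Tyk2-/- against Tyk2K923E, where 629 would be 0.05 of all genes. The smallest adjusted p belonged to Rcn3, a calcium-binding protein of the secretory pathway, which read 8.35 in the Tyk2-/- culture of experiment 1 and 5.72 to 6.17 on the other 8 arrays. Its interaction was 2.29 (SE 0.14) against Tyk2K923E, with a limma adjusted p of 0.0514, and 2.13 (SE 0.14) against WT, with 0.0785. The mitotic genes Cep55 (-0.90, SE 0.11) and Ndc80 (-0.86, SE 0.11) were among the 5 smallest p-values for Tyk2K923E against WT, with a limma adjusted p of 0.411 for each.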

How the data were processed

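Total RNA of 9 cultures was hybridised to Affymetrix whole-transcript arrays. The deposited table holds log2 values made by the authors with RMA in Partek 6.6, per the submitters' processing notes; the build behind them is not given in the sources used here. The background correction and scaling of RMA hide a change shared by most genes, and array medians lay between 5.42 and 5.48. Probe sets were named through the platform table: 23521 had 1 symbol, 1814 several and 16010 were not listed. The brightest probe set was kept for each gene.

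Experiment 1 was described from differences within genotype, without a p-value. Experiment 3 against experiment 2 (experiment and genotype as factors) and the interaction of genotype with experiment 1 were fitted over all 9 arrays with limma 3.58.1 in R 4.3.3 and Benjamini-Hochberg adjustment over 12579 genes. The fits and the call rule were tested on simulated data. The genotype, which is the replicate number within each experiment, served as the block. Deviations of arrays of the same genotype correlated at 0.0813 to 0.334 (9 pairs), against -0.268 to 0.1 for different genotypes (18 pairs).

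Text names the 15 highest and the 15 lowest separated genes, up to 5 genes of each list, a set of genes known in NK cells, and the smallest p-values. Promoters are from RefSeq, with the 2 largest differences per list among promoters that hold a motif of the list in the stretch printed. The members and lists were chosen with earlier results of these data known. Depth does not apply to arrays, whose number limits the precision. Alternatives changed the filter, the scaling, the probe-set rule, the block, the arrays compared, the limits and the moderation, and left out each array in turn.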

Additional observations from a re-analysis of the deposited data

How the results depend on the processing

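The number of genes called higher and lower in experiment 1 (43 and 62) moved by over 1.5 times only with the limit, with the genotypes used or without the Tyk2-/- array of experiment 1. It was 1821 and 2356 for separation at any size, 269 and 485 at 1.5-fold, and 0 and 1 at 4-fold. From the WT cultures alone it was 68 and 85, from Tyk2K923E alone 111 and 194, and from Tyk2-/- alone 35 and 36. With 1 array of experiment 1 against 2 others, the separation rule removed no gene of at least 2-fold. These counts therefore hold all 153, 305 and 71 genes of that size. Any other cause was not tested. Leaving out each array gave 30 to 66 higher and 45 to 108 lower, with both upper ends without the Tyk2-/- array of experiment 1. The value without the replicate block was the same by the balance of the design, 43 and 62.

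Experiment 3 against experiment 2 went from 0 genes to 1 with the filter at the 70th percentile, an adjusted p limit of 0.1, an intensity trend and array weights, which was Gzmk each time (adjusted p from 0.0161 to 0.0539), and it was 0 without the replicate block. Leaving out arrays gave 0 to 1, with Iigp1 (adjusted p = 0.0285) without the WT array of experiment 3. The interactions of Tyk2-/- with WT and with Tyk2K923E went from 0 to 1, Rcn3, after median centring and quantile normalisation and at a limit of 0.1, and the latter also with the mean over probe sets. The cause was not tested. An interaction could not be fitted without the experiment 1 array of a genotype it compares.

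Of 778 list medians under alternatives, 660 lay within 1 SD of the reported one, and none of 1666 values of named genes reversed a call. Neutrophil markers had no value with the filter at the 70th percentile. The median changed sign under some alternative in 10 of 41 lists, and in 1 of them, erythroid and platelet genes, the reported size was at least 0.1. Checkpoint receptors had a median of 0.14 without the filter on low values.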

Other observations

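Clic3, a chloride channel protein chosen after its values were seen, stood out in the opposite direction to Rcn3 in the Tyk2-/- culture. It read 6.66 and 7.03 in the WT and Tyk2K923E cultures of experiment 1, 5.62 in its Tyk2-/- culture and 5.74 to 6.03 on the other 6 arrays. Its interaction was -1.47 (SE 0.13) for Tyk2-/- against Tyk2K923E, with a limma adjusted p of 0.172, and -1.27 (SE 0.13) against WT, with 0.379.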
